A study of Homo sapiens with 30 samples.

Results

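The genes described here encode the proteins of the cytosolic ribosome, together with the few paralogs that human cells carry beside them. They were picked by symbol: RPL or RPS followed by a number, with or without the endings A, X, L, AL or L1, and RPLP0, RPLP1, RPLP2 and RPSA. The rule found 84 of the 16975 listed genes. Of these, 77 are the main genes, 31 for the small subunit and 46 for the large subunit, and 7 are paralogs: RPL3L, RPL7L1, RPL22L1, RPL26L1, RPL36AL, RPL39L and RPS27L. All 77 main genes and 6 of the 7 paralogs passed the filter on low values. RPL3L, known from muscle, did not: it had 82 reads over the 30 libraries, between 0 and 9 in each.

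The assay, 3' RNA-seq, counts tags from the ends of polyadenylated transcripts, and it was run on 10 groups of 3 libraries. HEK28 descends from the embryonic kidney line HEK293 and secretes coagulation factor VIII, and it was compared with the parental HEK line. The other 8 groups are HEK28 derivatives in which CRISPR was aimed at CANX or CALR (the lectin chaperones calnexin and calreticulin), LMAN1 or MCFD2 (the cargo receptor that takes factor VIII out of the endoplasmic reticulum), GABARAP, GABARAPL1 or GABARAPL2 (ATG8 proteins of the autophagosome), or ATG7 (the enzyme that starts ATG8 lipidation). All cells were untreated, and the factor VIII transgene is shared by HEK28 and the 8 knockouts. Parental samples also carry HEK28 as their cell line label, so that group rests on title and genotype. The factor VIII gene F8 had 0, 0 and 2 reads in the parental libraries and 118 to 5409 in the other 27. The labels give 1 line per knockout and do not say whether its 3 libraries came from separate cultures. The p-values therefore measure the spread between these libraries, and a difference of a knockout line cannot be told apart from a difference of that 1 line.

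The ribosome holds 1 copy of nearly every one of these proteins, so the cell makes them in matched amounts. Their messenger RNAs are known as TOP mRNAs: they start with a C followed by a run of pyrimidines, through which the mTOR pathway and LARP1 set their translation and stability. Protein made in excess is degraded, and RPL5 and RPL11, which carry the 5S rRNA, also bind MDM2 outside the ribosome. RPLP0, RPLP1 and RPLP2 form the stalk that recruits elongation factors, and RPL4, RPL17, RPL19, RPL23A, RPL26, RPL31, RPL35 and RPL39 line or surround the exit of the peptide tunnel. The paralogs can replace their partners or serve other roles, and RPL22 is known to repress the splicing and level of RPL22L1.

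The start of the gene shows the family's common feature, so the windows are printed of genes that led the differences described below, with and without a pyrimidine run, and of 3 paralogs, 2 of them with their partners. RPL39 is shown because it was low in HEK28 replicates 1 and 2. RPL6 has a pair of annotated starts. Each runs from 30 bases before to 20 bases after the annotated start (RefSeq, GRCh38.p14), on the coding strand, and capitals mark a C followed by at least 4 pyrimidines within reach of the start.
RPL12 (chr9:127451387-127451436, minus strand): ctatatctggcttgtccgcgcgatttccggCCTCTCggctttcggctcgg
RPL3 (chr22:39319604-39319653, minus strand): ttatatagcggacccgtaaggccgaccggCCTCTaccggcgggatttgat
RPL26 (chr17:8383174-8383223, minus strand): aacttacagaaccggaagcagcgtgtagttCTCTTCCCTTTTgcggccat
RPS10 (chr6:34426050-34426099, minus strand): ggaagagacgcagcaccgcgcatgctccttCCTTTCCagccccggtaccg
RPL6 (chr12:112411423-112411472, minus strand): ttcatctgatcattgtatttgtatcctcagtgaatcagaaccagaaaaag
RPL6 (chr12:112409266-112409315, minus strand): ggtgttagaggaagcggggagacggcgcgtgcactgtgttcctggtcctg
RPL17 (chr18:49492446-49492495, minus strand): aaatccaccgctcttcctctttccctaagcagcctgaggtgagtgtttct
RPS29 (chr14:49598691-49598740, minus strand): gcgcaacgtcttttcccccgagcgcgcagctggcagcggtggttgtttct
RPL39 (chrX:119791611-119791660, minus strand): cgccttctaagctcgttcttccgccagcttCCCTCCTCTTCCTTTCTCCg
RPL22 (chr1:6199576-6199625, minus strand): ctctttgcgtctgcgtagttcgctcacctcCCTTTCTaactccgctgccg
RPL22L1 (chr3:170870176-170870225, minus strand): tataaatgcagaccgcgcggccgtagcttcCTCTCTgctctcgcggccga
RPS27 (chr1:153990732-153990781, plus strand): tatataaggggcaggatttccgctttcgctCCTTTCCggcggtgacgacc
RPS27L (chr15:63157458-63157507, minus strand): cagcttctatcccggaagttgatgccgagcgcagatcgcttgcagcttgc
RPL7L1 (chr6:42879586-42879635, plus strand): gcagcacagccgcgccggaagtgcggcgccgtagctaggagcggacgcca

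Of the main genes 62 have an entry in this table, and 46 of them (74.2%) start with such a run at the annotated base, against 1404 of 27305 genes in all (5.1%). The share was 75.0% for the small subunit and 73.7% for the large subunit. A run that starts within 10 bases of the annotated start was found in 57 main genes (91.9%) and in 38.4% of all genes, so RPL3, whose run begins 1 base before the start, counts only there. Among the 5 paralogs with an entry, 1 (20.0%) had a run at the start: RPL22L1, like its partner RPL22. RPS27L, RPL7L1, RPL6, RPL17 and RPS29 had none within reach of the start. Among 13 other translation genes of the TOP class with an entry, 11 (84.6%) had the run, against 4 of 31 ribosome biogenesis genes (12.9%). A match is a description of the letters and not of a measured start, and the search covered the coding strand only.

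The libraries held 155764 to 4048181 reads, and HEK28 and the parental line were at the low end (155764 to 427048 and 161056 to 622002). Of the 8 targeted genes 4 (CANX, CALR, LMAN1, MCFD2) fell in their own line against the other 7 knockouts, with all 3 libraries below the rest, and 4 (GABARAP, GABARAPL1, GABARAPL2, ATG7) did not pass the test. A 3' tag need not lie in the part that was edited, so it checks only whether the transcript became scarcer. Of 7 HEK293 markers used, VIM (13917 reads) and NEFL (47932 reads) were detected in all 30 libraries and PAX2 (72 reads) was at 0 in 9. The 8 markers of other cell types used had 66 to 550 reads each over all 30 libraries. COL1A1 of fibroblasts (550), HBB of red cells (528), ACTA2 of smooth muscle (249) and LYZ of myeloid cells (121) had the most, and PTPRC of leukocytes (88), PECAM1 of endothelium (75) and GFAP of glia (66) fewer.

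Of the 30 libraries 3 stood apart in these genes, HEK28 replicates 1 and 2 and LMAN1 knockout replicate 2. With each main gene set to its mean over the 24 knockout libraries, the median deviation was -0.57 and -0.46 on the log2 scale in HEK28 replicates 1 and 2, and 0.05 in replicate 3. The deviations were also spread out: their interquartile range was 1.18 and 1.33 in the first pair and 0.16 in replicate 3. LMAN1 knockout replicate 2 had a median of 0.16 but an interquartile range of 0.67, against at most 0.34 in the other 23 knockout libraries. The 3 parental libraries lay lower as a block, with medians of -0.89, -0.76 and -0.70.

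In HEK28 replicates 1 and 2 the same genes were low. A set of 24 main genes was more than 2-fold below the knockout mean in both libraries, among them RPL5, RPL11, RPL26, RPL39, RPLP0, RPL7A and RPS29, with a median of -1.28 and -1.43. These 24 genes, chosen by those values, had a median of 0.08 in HEK28 replicate 3 and -0.32 in LMAN1 knockout replicate 2. A further 8 genes (RPL8, RPL12, RPL23A, RPL35, RPL41, RPS9, RPS15 and RPS28) were over 0.5 above the knockout mean in both. Their median was 0.01 in HEK28 replicate 3 and 0.63 in LMAN1 knockout replicate 2. RPS29, a zinc-finger protein of the small subunit head, was furthest apart: 8.52, 7.11 and 12.96 in the 3 HEK28 libraries, and 12.94, 10.68 and 13.00 in the LMAN1 knockout. HEK28 replicates 1, 2 and 3 held 155764, 427048 and 312928 reads. Over genes with resolved reads, replicates 1 and 2 differed by a chi-square per degree of freedom of 1.835. Replicate 3 differed from them by 6.525 and 10.38, so within HEK28 it was the odd one. What sets the 3 libraries apart, depth included, was not tested. Counts of calls are given with and without them. Of 36 named calls in comparisons that do not use HEK28, 35 were kept without the 3 libraries, and RPS28 in LMAN1 was lost (0.28, adjusted p = 0.117).

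The share of reads that fell on main ribosomal protein genes was lower in the parental line than in any other library. Over the 54 main genes whose reads could be resolved, the parental libraries gave 7.83%, 7.93% and 7.78% (mean 7.85% ± 0.0792, SD, n = 3). The 24 knockout libraries lay between 10.38% and 12.34% (11.13% ± 0.581, SD), with no overlap. Among the knockouts CALR was highest (12.05% ± 0.313, SD, n = 3), followed by LMAN1 (11.73% ± 0.17) and MCFD2 (11.53% ± 0.534), whose values overlap. The other 5 lines had means between 10.56% and 10.98%. HEK28 gave 9.39% and 9.69% in replicates 1 and 2 and 11.1% in replicate 3. Intervals for counting error alone are narrow: the shallowest library, HEK28 replicate 1, has a 95% exact binomial interval of 9.242% to 9.532%.

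Ribosomal protein mRNAs were higher in the HEK28 knockouts than in the parental line. Taking the 8 knockouts together, 58 of the 77 main genes rose and 0 fell past an adjusted p of 0.05 (limma, Benjamini-Hochberg over 11296 genes), where 24% of all tested genes were higher and 13.5% lower (37.4% in either direction). The median main gene was 0.80 higher on the log2 scale, against 0.10 over all tested genes, and 72 of 77 differences were above 0. Both subunits took part, with 24 of 31 small subunit genes and 34 of 46 large subunit genes called. For 43 of the 77 genes all 24 knockout libraries lay above all 3 parental libraries. The same count was not made over all tested genes, so it does not set the family apart. The contrast sets 8 lines derived from HEK28 against 1 parental line, and treating the 24 libraries as replicates leaves out the spread between lines.

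Large subunit proteins led the list. RPL12 (chr9:127447674-127451405), a protein of the stalk base that binds next to RPLP0, had log2 levels of 8.35, 8.77 and 8.88 in the parental libraries and 10.59 to 11.43 in the knockouts. It was 4.753-fold higher (log2 difference 2.25, SE 0.110, adjusted p = 2.1e-13). RPL3 (chr22:39312882-39320389), which reaches towards the peptidyl transferase centre, stood at 6.61, 6.85 and 6.72 in the parental line and at 8.42 to 9.28 in the knockouts, a 4.115-fold difference (adjusted p = 5.19e-14). The groups of both genes were far apart and none of their libraries overlapped.

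RPL14 (chr3:40457292-40468587) was 3.935-fold higher (parental 3.55, 3.95 and 4.26, knockouts 5.49 to 6.12, adjusted p = 3.12e-11). RPL27A was 3.142-fold higher, from 5.99 to 6.24 in the parental line to 7.34 to 8.37 in the knockouts. Of the small subunit, RPS20 (2.573-fold, adjusted p = 2.89e-10), RPS23, which sits at the decoding centre (2.502-fold, adjusted p = 1.17e-05), and RPS7 (2.394-fold, adjusted p = 0.00442) changed most. HEK28 replicates 1 and 2 do not enter these differences, though they enter the shared estimate of the spread. Without them and LMAN1 knockout replicate 2, 64 main genes were higher and 1, RPL41, lower (log2 difference -0.17, adjusted p = 0.0319), with all 58 among them and 45% of all genes called.

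By role the differences were uneven. The 5S rRNA carriers both rose: RPL11 was 2.238-fold higher (parental 7.88, 7.92 and 7.87, knockouts 8.60 to 9.43, adjusted p = 1.64e-05) and RPL5 1.874-fold higher (adjusted p = 0.000169). Of the 8 genes around the exit tunnel 7 rose, from RPL35 (log2 difference 0.50) to RPL26 (1.31). The exception was RPL39, a tiny protein of the tunnel wall, at -0.31 (adjusted p = 0.473), with 9.41, 9.61 and 9.33 in the parental libraries, of which 9.61 lies above the highest knockout library (9.59). None of the 3 stalk genes passed the test: RPLP0 differed by -0.03 (adjusted p = 0.913), RPLP1 by 0.09 (0.408) and RPLP2 by 0.19 (0.115). RPLP0 had 7.59, 7.67 and 7.65 in the parental line, while its neighbour in the structure, RPL12, showed the largest difference of the family.

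Among the 19 main genes that did not pass were RPL13, RPL18, RPL27, RPL29, RPL36, RPL36A, RPL39, RPL41, RPLP0, RPLP1, RPLP2, RPS12, RPS18, RPS19, RPS21, RPS27 and RPS29. RPS19, the gene mutated most often in Diamond-Blackfan anaemia, differed by -0.01 (SE 0.0882). For RPS29, RPS21 and RPL27 the standard error was 0.61, 0.39 and 0.33, so that a difference of this size could not be seen. Without the 3 libraries that stood apart, RPS12, RPS21, RPS27, RPS29, RPL18 and RPL27 passed as higher.

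Other genes of translation were compared as lists, described here by counts. Of 19 tested genes of the TOP class outside the rule, 17 were higher and 1 lower, with a median of 1.04. EIF3E, a subunit of initiation factor 3 (log2 difference 2.23, adjusted p = 9.28e-10), PABPC1, the poly(A)-binding protein (1.53, adjusted p = 2.66e-09), and NPM1, a nucleolar chaperone (1.28, adjusted p = 6.39e-10), differed most. FAU and RACK1, ribosomal proteins whose symbols fall outside the rule, were 0.83 and 0.80 higher. Of 36 ribosome biogenesis genes 6 were higher and 10 lower (median -0.14), and of 21 initiation factors 9 were higher and 2 lower (median 0.12). Among all tested genes 24% were higher and 13.5% lower. Sorted by the pyrimidine start, 31 of 46 main genes with the run were higher (67.4%, median log2 difference 0.56) against 14 of 16 without it (87.5%, median 0.90). Among all other genes with an entry 33.3% with the run and 23.4% without it were higher. The difference between these shares was not tested.

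HEK28 itself against the parental line depended on which HEK28 libraries were used. With all 3, 33 main genes were higher and 8 lower, where 31.9% of all genes were called, and the median was 0.30 against -0.07 over all genes. Quantile normalisation gave 31 higher and 14 lower. With replicate 3 alone, whose spread is then assumed to be that of the other groups, 52 were higher and 0 lower (22% of all genes called, median 0.87 against 0.11), and 29 of the calls were shared.

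RPL12 was higher in both fits (2.65 with all 3 libraries, adjusted p = 4.73e-12, and 2.24 with replicate 3, adjusted p = 9.45e-09), with 11.52, 11.51 and 10.90 in HEK28. So was RPL3, at 2.12 (adjusted p = 8.98e-12) and 2.14 (adjusted p = 1.34e-08), with HEK28 at 8.77, 8.90 and 8.87. Those lower with all 3 libraries included RPS29 (-2.44, adjusted p = 0.0241), RPL39 (-2.12, adjusted p = 0.000605) and RPLP0 (-0.79, adjusted p = 0.00484). With replicate 3 alone these 3 genes stood at 0.99 (adjusted p = 0.209), -0.39 (adjusted p = 0.462) and 0.04 (adjusted p = 0.891). The parental side is the same 3 libraries as in the comparison with the knockouts.

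Each knockout against HEK28 gave many calls that rested on the same 2 HEK28 libraries. With all libraries the counts of main genes higher and lower were 26 and 9 for CANX (18.9% of all genes called), 40 and 8 for CALR (18.2%), 37 and 0 for LMAN1 (5.47%, 4.5% higher) and 25 and 8 for MCFD2 (18%). ATG7 had 23 and 8 (12.6%). Of the ATG8 lines GABARAPL2 had 35 and 9 (26.2%), GABARAPL1 23 and 9 (9.84%) and GABARAP 10 and 4 (5.67%). Genes of the HEK28 pattern above were among those called. RPL7A was higher in all 8 lines, RPS21 in 7 and RPS29 in 6, with adjusted p = 0.0542 and 0.0572 for RPS21 and RPS29 in GABARAP. The 8 comparisons share the HEK28 libraries, so their likeness is no separate evidence.

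Without HEK28 replicates 1 and 2 few of these calls were left. No main gene passed in the CANX (2.91% of all genes called), GABARAP (2.6%) or GABARAPL1 (1.66%) knockout, with 4, 3 and 6 of 77 at an unadjusted limma p under 0.05. In the CALR knockout (5.34%) RPL26 was 0.49 higher (adjusted p = 0.0408), and in the LMAN1 knockout (1.29%) RPL6 was 0.71 higher (adjusted p = 0.00526). In the MCFD2 knockout (5.74%) RPS27A fell by 0.64 (adjusted p = 0.00304), RPS10 by 0.53 (0.0244) and RPLP1 by 0.43 (0.0264). The GABARAPL2 knockout (3.13%) had RPL6 0.66 higher (adjusted p = 0.00582), RPS10 0.61 lower (0.0143) and RPLP1 0.43 lower (0.0421), and in the ATG7 knockout (2.23%) RPL26 was 0.57 lower (0.0324). The median over the 77 main genes was between -0.10 and 0.13 in all 8. Here 1 library stands for HEK28. Replicates 1 and 2 were set aside for their distance from the knockouts, so fewer calls without them follow in part from that choice.

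The 8 knockouts were then compared with one another, which leaves HEK28 out of the difference. Most main genes kept to a narrow band: the median gene had a range of 0.54 (log2) between its lowest and highest knockout mean, against 1.02 over all tested genes. Counting error widens such a range, and the filter admits genes with far fewer reads than these, from 15 in all. Genes of like level were not compared, for the range or for the F-test below. An F-test over the 8 lines called 17 of 77 main genes (22.1%), 8 of 31 small and 9 of 46 large subunit genes, against 13.2% of all genes. The test takes its spread from all 30 libraries: without the 3 that stood apart it called 53 of 77, 16 of the 17 among them, and 25.2% of all genes. Leaving out a single library gave 9 (CALR knockout replicate 1) to 15 calls. By the smallest p the genes were RPL6, RPS10, RPL21, RPS27A, RPLP1 and RPL26.

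RPL6 (chr12:112405190-112418838), a large subunit protein, varied most reliably, 2.204-fold between ATG7 and LMAN1 (adjusted p = 1.34e-07). Its libraries differed by line, with some overlap. They read 14.62, 14.60 and 14.81 in LMAN1, 14.71, 14.62 and 14.53 in GABARAPL2 and 14.48, 14.37 and 14.52 in GABARAPL1. CALR (14.10, 14.09 and 14.14), GABARAP (13.99, 14.15 and 14.02) and CANX (13.94, 13.86 and 14.04) lay between.

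MCFD2 (13.82, 14.00 and 13.48) and ATG7 (13.48, 13.60 and 13.53) were lowest among the knockouts. HEK28 read 13.71, 13.69 and 13.96, and the parental line 12.68, 12.78 and 12.78, below every other library. LMAN1 and GABARAPL2 overlap, and GABARAPL1 lies just below both without overlap. GABARAP overlaps with CALR and with CANX, which do not overlap with each other. MCFD2 overlaps with ATG7, CANX and GABARAP. Each line against the mean of the other 7 put RPL6 0.61 higher in LMAN1 (adjusted p = 0.000129), 0.54 higher in GABARAPL2 (0.000103), 0.35 higher in GABARAPL1 (0.0329), 0.43 lower in MCFD2 (0.00131) and 0.69 lower in ATG7 (2.24e-05). Under quantile normalisation the calls of LMAN1 (adjusted p = 0.102) and GABARAPL1 (0.109) were lost.

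RPS10 (chr6:34417454-34426125), a small subunit protein near the entry of the mRNA channel, differed 1.947-fold between CALR and GABARAPL2 (adjusted p = 1.44e-05). CALR read 14.27, 14.25 and 14.20, level at its lowest with LMAN1 knockout replicate 2 (14.20) and above all other libraries, and GABARAPL2 read 13.29, 13.20 and 13.34. MCFD2 (13.33, 13.63 and 13.13) overlapped with GABARAPL2, and the other 5 lines lay between 13.67 and 14.20. Against the other 7 it was 0.54 higher in CALR (adjusted p = 0.000305), 0.56 lower in GABARAPL2 (0.000172) and 0.46 lower in MCFD2 (0.00144). RPS10 overlaps another protein-coding gene on the same strand in GENCODE 29, and whether they share tags was not tested.

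RPS27A (chr2:55231903-55235853) encodes a ubiquitin joined to a small subunit protein. It was low in MCFD2 (10.60, 10.93 and 10.71) against 11.24 to 11.73 in the other 21 knockout libraries, with no overlap (log2 difference -0.67, adjusted p = 7.28e-05). CALR was highest (11.68, 11.66 and 11.73), 0.40 above the others (adjusted p = 0.0116), a call that was lost without any one of its 3 libraries (adjusted p 0.07 to 0.0959). RPL26 (chr17:8377516-8383250), of the tunnel exit, was low in ATG7, at 8.85, 8.89 and 8.76 against 9.35 to 9.99 in the other knockouts (-0.78, adjusted p = 0.00111). HEK28 replicate 3, at 9.41, lay with the other knockouts, while HEK28 replicates 1 and 2 were each more than 2-fold below the knockout mean. In all, 9 members overlap another protein-coding gene on their strand, RPL26, RPL17, RPL22 and RPL36A among them.

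RPL21 and RPLP1 varied in smaller steps. RPL21 ran from 12.26, 12.34 and 12.32 in GABARAP to 13.04, 12.95 and 13.06 in LMAN1 (range of means 0.71, F-test adjusted p = 0.000286), and the parental line lay below all of these at 11.72, 11.48 and 11.69. RPLP1 read 12.29, 12.26 and 12.27 in LMAN1 and 12.12, 12.21 and 12.20 in ATG7, and was lowest in MCFD2 at 11.70, 11.90 and 11.48 (range 0.58, adjusted p = 0.00134). Unlike RPL21, its parental libraries (11.82, 11.77 and 11.97) lay within the knockouts.

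RPL17 (chr18:49488453-49492523), of the tunnel exit, was low in GABARAP, at 7.53, 7.48 and 7.11 against 7.64 to 8.87 elsewhere among the knockouts (-0.86, adjusted p = 0.0426). This call is weak: it was lost with quantile normalisation (adjusted p = 0.0597) and without the filter (0.0604). It was also lost in 17 of the fits that left out 1 library (adjusted p up to 0.263). RPLP0, the stalk protein, ran from 7.24, 7.21 and 7.24 in GABARAPL2 to 7.97, 7.91 and 7.94 in CALR. It did not pass the F-test with all libraries (adjusted p = 0.15) and did without the 3 that stood apart (0.000742).

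Line by line, 0 to 7 main genes passed against the other 7 knockouts, and the counts depended on the fit. Voom weights gave 28 for CALR and 24 for LMAN1, and fits to the knockouts alone 16 and 12, against the 4 and 6 given here. Calls over all genes were not counted for these fits, so the larger counts do not set the family apart. In the CANX knockout 0 passed (1.47% of all genes called), with 6 of 77 at an unadjusted limma p under 0.05 and 2 lower with voom weights. In CALR 4 were higher (2.94% of all genes called, 1.47% higher), RPS10, RPS27A, RPS3A (0.40, adjusted p = 0.0445) and RPL32 (0.39, adjusted p = 0.0151). The RPS3A call was lost in 20 of the fits without 1 library (adjusted p up to 0.317). In LMAN1 6 were higher (1.04%, 0.62% higher), RPL6, RPL41 (0.47), RPS28 (0.43), RPL21 (0.40), RPLP1 (0.38) and RPL13A (0.37). RPL41 and RPS28 were each lost in 23 of these fits (adjusted p up to 0.401 and 0.491). Without LMAN1 knockout replicate 2, or without replicate 1, a single one was left. MCFD2 had 7 lower (5.03%, 3.41% lower), among them RPS27A, RPS10, RPL6, RPS28 (-0.42), RPL21 (-0.31) and RPLP1 (-0.29). Quantile normalisation turned this into 4 higher and 2 lower.

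GABARAP had 2 lower (2.66%, 1.86% lower), RPL17 and RPL21 (-0.41, adjusted p = 0.00461), and GABARAPL1 had only RPL6 higher (0.354%, 0.133% higher). GABARAPL2 had RPL6 higher and RPS10 lower (4.13%). ATG7 had 3 lower (1.43%, 1.13% lower), RPL26, RPL6 and RPL41, a very short basic protein (-0.56, adjusted p = 0.0101). Without the 3 libraries that stood apart the counts were larger in all lines but LMAN1 (5, 0.637%): 5 for CANX (2.89% of all genes), 21 for CALR (6.44%), 16 for MCFD2 (9.39%), 9 for ATG7 (3.74%), 13 for GABARAPL2 (9.08%), 17 for GABARAP (8.31%) and 3 for GABARAPL1 (0.921%). The shares of all genes grew with them, and these contrasts share their libraries. By direction the calls were mixed in CALR (15 higher, 6 lower), MCFD2 (5 and 11) and GABARAPL2 (6 and 7). ATG7 had 1 higher and 8 lower, GABARAP 1 and 16, and GABARAPL1 1 and 2. All 5 were lower in CANX and all 5 higher in LMAN1.

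The median shift of the whole family was small in each line: 0.18 in CALR, 0.18 in LMAN1 and between -0.09 and 0.05 in the other 6. Without the 3 libraries that stood apart the median was 0.17 in CALR and 0.22 in LMAN1. In MCFD2, where 3.41% of all genes were lower, 6 of 19 other TOP class genes were lower and 0 higher, EEF2 among them (-0.73, adjusted p = 3.44e-05). Without the 3 libraries 8 were lower, as were 675 of all 11296 tested genes. Of 36 biogenesis genes 3 were lower in MCFD2, and 3 were higher in LMAN1, where 0.62% of all genes were. In GABARAP 4 were higher, where 2.66% of all genes were called in either direction and 1.86% were lower. Without the 3 libraries these counts were 7, 2 and 10, beside 675 lower, 31 higher and 312 higher of 11296 genes. In that fit 6 biogenesis genes were lower in CANX and 4 in CALR, beside 193 and 395 of all genes. GABARAPL2 had 4 higher and 1 lower, beside 667 and 359. No difference between lists or lines was tested. In CALR, RPL11 read 9.31, 9.30 and 9.38 and RPL5 9.89, 9.74 and 9.86, and neither passed against the other 7.

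Since each line is a single derivative, the neighbours of a gene on its chromosome were set beside it, taking all tested genes within 5 Mb. RPL17 in GABARAP had 27 neighbours with a median difference of -0.63, 21 of them below 0 and 9 called lower. Among all genes 1.86% were called lower there. RPS10 in GABARAPL2 had 114 neighbours with a median of -0.41, 15 of them called lower, where 4.13% of all genes were called in either direction. In MCFD2 the median of the neighbours of RPS10 was -0.39. RPL26 in ATG7 had 103 neighbours with a median of -0.24, 5 of them called lower, where 1.13% of all genes were. RPS27A in MCFD2 had 17 with a median of -0.34, 11 of them below 0. In these lines the region moved the same way as the gene. The same held for RPS10 in CALR (0.54 beside a neighbour median of 0.21) and RPL41 in ATG7 (-0.56 beside -0.39). It held for RPL21 in GABARAP (-0.41 beside -0.31) and in LMAN1 (0.40 beside 0.255). In MCFD2 it held for RPS28 (-0.42 beside -0.40), RPL21 (-0.31 beside -0.43) and RPLP1 (-0.29 beside -0.29). Some other calls stood beside regions near 0 or on the other side. In CALR, RPS27A (0.40) had a neighbour median of -0.04, RPL32 (0.39) of -0.07 and RPS3A (0.40) of 0.095. In LMAN1, RPL41 (0.47) had one of 0.03.

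RPL6 went with its region in some lines and against it in others. In LMAN1 it was 0.61 higher while its 56 neighbours had a median of -0.25 and 40 of them were below 0, and in MCFD2 it was 0.43 lower beside a median of 0.18. In ATG7 gene and region were both low (-0.69 and a median of -0.35), in GABARAPL1 both were high (0.35 and a median of 0.24, 44 of 56 above 0), and in GABARAPL2 it was 0.54 higher beside a median of -0.08. Without the 3 libraries that stood apart the median around RPL6 in LMAN1 was -0.175. The part of regional shifts in these results was not tested.

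Of the 6 tested paralogs 3, RPL22L1, RPS27L and RPL7L1, were called in the F-test over the 8 lines. RPL22L1 (chr3:170864875-170870483) had the widest range of all 84 members, 9.224-fold between GABARAP and GABARAPL1 (F-test adjusted p = 0.000211). It read 5.47, 4.81 and 5.41 in GABARAPL1 and 2.10, 2.31 and 1.66 in GABARAP. The other knockouts lay between 2.62 and 4.58. Against the other 7 it was 3.413-fold higher in GABARAPL1 (adjusted p = 0.00879) and 3.712-fold lower in GABARAP (adjusted p = 0.00117). The first call was lost without replicate 1 (adjusted p = 0.119) or 3 (0.0827) of that line. It did not move with its region: its 16 neighbours had medians of 0.04 and -0.02.

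Its partner RPL22 (chr1:6185020-6209389) was lowest where RPL22L1 was highest, but not highest where RPL22L1 was lowest. The mean of RPL22 was highest in LMAN1 (6.91), where RPL22L1 had a mean of 3.71. RPL22 read 6.32, 6.29 and 6.43 in GABARAPL1 and 6.84, 6.93 and 6.76 in GABARAP, and these libraries did not overlap. The drop in GABARAPL1 against the other 7 was -0.38 and did not pass (adjusted p = 0.141), nor did RPL22 in the F-test (adjusted p = 0.0555, and 0.0299 without the 3 libraries). Against the parental line both were higher in the knockouts, RPL22 by 0.89 (adjusted p = 3.7e-07) from 5.68, 5.84 and 5.86, and RPL22L1 by 1.40 (adjusted p = 0.000943) from 2.33, 2.13 and 2.37. HEK28 gave 1.64, 1.05 and 3.56 for RPL22L1, from 4, 7 and 31 reads.

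RPS27L (chr15:63125872-63158021), a close copy of RPS27, was highest in LMAN1 (9.40, 9.99 and 9.33) and lowest in GABARAPL2 (8.08, 7.96 and 8.05). Against the other 7 it was 2.065-fold higher in LMAN1 (adjusted p = 0.00873), which did not hold without replicate 2 of that line (0.181), and 0.72 lower in GABARAPL2 (adjusted p = 0.0404), which was lost in 10 of the fits that left out 1 library (adjusted p up to 0.229). HEK28 replicates 1 and 2 were higher still, at 10.08 and 10.26, while replicate 3 stood at 8.65. RPS27 ranged only from 7.30 to 8.00 among the knockouts, with a range of line means of 0.54 (F-test adjusted p = 0.0439). Against the parental line RPS27L was 2.411-fold higher in the knockouts (parental 7.01, 7.52 and 7.64, adjusted p = 2.02e-05). RPS27 was 0.27 higher and did not pass (adjusted p = 0.0671).

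RPL7L1 (chr6:42879618-42889925), a nucleolar protein of 60S assembly, was 1.976-fold lower in MCFD2 (10.64, 10.11 and 9.81, adjusted p = 0.000133). GABARAPL2 followed with 10.84, 10.62 and 10.84, and the other 18 knockout libraries lay between 11.10 and 11.61. In MCFD2 its 53 neighbours had a median of -0.69, 46 of them below 0. HEK28 read 12.09, 12.19 and 11.25 and the parental line 11.40, 11.28 and 11.31. It did not pass against the parental line (-0.28, adjusted p = 0.105), whereas its partner RPL7 was 2.361-fold higher in the knockouts (parental 6.91, 6.83 and 6.90, adjusted p = 7.89e-10).

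The remaining paralogs were not called among the knockouts. RPL36AL read 8.55 to 10.08 in the knockouts and 10.01, 9.95 and 9.94 in the parental line (-0.62, adjusted p = 0.235), and its 5.48 and 6.65 in HEK28 replicates 1 and 2 rest on 1 and 8 reads. RPL36A, its X-linked partner, differed by 0.04 from the parental line. RPL39L, known from testis and stem cells, had 1145 reads in all and RPL26L1 1667. Neither passed against the parental line (0.38, adjusted p = 0.628, and 0.54, adjusted p = 0.0969) or in the F-test (adjusted p = 0.771 and 0.346).

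Levels are comparable within a gene and not between genes, because the divisor of each gene in the table does not follow its annotated length. Reads from 229 listed pseudogenes of ribosomal protein genes made up 1.5% of all reads. How many of them came from the members was not tested, and values of members with near-identical copies are uncertain.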

How the data were processed

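RNA was sequenced as 3' tags. TopHat2, Bowtie, cutadapt, FastQC and the build hg38 appear in the submitters' processing notes. How reads were counted and normalised is not given in the sources used here. The authors deposited 1 table of log2 values (16975 genes, 30 libraries). Each value was read as log2 of reads plus 0.5, divided by a gene divisor and a library size. This gave whole reads for 16920 genes and left 55 unresolved, of which 23 are members. Depths are sums of resolved reads.

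Genes with a CPM of at least 15.8 (10 reads at the median depth of 630993) in 3 libraries and at least 15 reads in all were tested, as were those not resolved, which left 11296. A count model had been planned for counts. For log2 values limma 3.58.1 (R 4.3.3) with trend and robust moderation was fitted to all 30 libraries with 1 coefficient per group, two-sided, Benjamini-Hochberg threshold 0.05, and tested on simulated data. The deposited offset served as pseudocount. Groups come from titles and genotype labels. The 19 comparisons share libraries. Gene positions are from GENCODE 29 (GRCh38), promoter letters from RefSeq.

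Members and gene lists were chosen with earlier results of these data known. Named genes are the 3 largest changes each way per comparison, the 6 smallest p of the F-test, paralogs with partners, the stalk and 5S genes, and 3 per list. RPS3A, RPL13A, RPLP1, RPS19, RPLP0 levels by line and the HEK28 pattern were added after values were seen. Alternatives were quantile normalisation, no filter, 1 added, voom weights, a replicate block, only the groups compared, and left-out libraries. Leaving out all 3 outlying libraries was chosen after seeing the data. Results for 2 main genes and for some genes and 1 list outside the family are not reported here.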

Additional observations from a re-analysis of the deposited data

How the results depend on the processing

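The count of main genes higher in the 8 knockouts than in the parental line held under every alternative run, with 51 called after quantile normalisation (48 higher, 3 lower) and 49 (without parental replicate 1) to 60 when single libraries were left out. Among the alternatives, calls over all genes were counted only without HEK28 replicates 1 and 2 and without the 3 libraries that stood apart. For the other alternatives, the counts of main genes therefore do not set the family apart. Quantile normalisation moved the median of all genes by over 0.1 in 1 comparison, GABARAPL2 against HEK28 (-0.128). Depth limits low members: RPL3L could not be tested, and RPL36AL and RPL39L rest on 0 to 8 reads in HEK28 replicates 1 and 2.

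HEK28 replicates 1 and 2 were set aside for their distance from the knockouts, so fewer calls without them follow in part from that choice. The comparisons with HEK28 were not stable across libraries and fits. Fitted to the 6 libraries compared, each of the 8 gave 0 main genes, with 2 to 35 at an unadjusted limma p under 0.05, and HEK28 against the parental line gave 16. Without HEK28 replicates 1 and 2 the counts were 0 for CANX, GABARAP and GABARAPL1, 1 for CALR, LMAN1 and ATG7, and 3 for MCFD2 and GABARAPL2. Without the filter they were 23 for LMAN1, 8 for GABARAP, 20 for GABARAPL1 and 18 for ATG7. Quantile normalisation gave 23 for LMAN1, and voom weights gave 9 for GABARAP. Leaving out 1 library gave 4 to 56 for CANX, 26 to 60 for CALR, 2 to 54 for LMAN1, 8 to 50 for MCFD2, 2 to 53 for ATG7, 22 to 61 for GABARAPL2, 1 to 52 for GABARAP, 1 to 57 for GABARAPL1 and 34 to 53 for HEK28 against the parental line. The highest count of each came without HEK28 replicate 3.

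Without HEK28 replicates 1 and 2 the log2 difference from HEK28 changed sign for RPS29 in CANX (-0.0983), CALR (-0.4387), MCFD2 (-0.0797), GABARAPL1 (-0.2503), GABARAPL2 (-0.486) and ATG7 (-0.7717). It did so for RPL7A in CANX (-0.057), CALR (-0.036), LMAN1 (-0.443), MCFD2 (-0.111), GABARAP (-0.39) and GABARAPL1 (-0.1417). The same held for RPS21 in CANX (-0.1347), CALR (-0.191), LMAN1 (-0.5029), MCFD2 (-0.122), GABARAPL1 (-0.2124) and ATG7 (-0.2855), and for RPL36AL in CALR (-0.4594), LMAN1 (-0.2381), MCFD2 (-0.0483), GABARAPL2 (-0.0181) and ATG7 (-0.3583). Others were RPL39L in CALR (-0.0874) and MCFD2 (-0.0121), RPS15A in LMAN1 (-0.051), RPS27L in CALR (0.0772) and GABARAP (0.0713), RPL7L1 in ATG7 (0.0177), and RPL11 (-0.0861), RPL8 (0.01) and RPL41 (0.0287) in GABARAP. Against the parental line HEK28 changed sign for RPS29 (0.9877), RPS21 (0.5781) and RPL7L1 (-0.0833). Of 87 named calls 6 were kept, 46 lost and 35 reversed.

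Against the other 7 knockouts, fits without HEK28 and parental libraries gave 2 main genes for CANX, 16 for CALR, 12 for LMAN1, 11 for MCFD2, 7 for ATG7, 10 for GABARAPL2, 5 for GABARAP and 3 for GABARAPL1, and 39 in the F-test. Voom weights gave 2, 28, 24, 14, 5, 17, 7, 2 and 37 in the same order. Without the 3 libraries that stood apart the counts were 5 for CANX, 21 for CALR, 16 for MCFD2, 9 for ATG7, 13 for GABARAPL2, 17 for GABARAP, 3 for GABARAPL1 and 53 in the F-test. Quantile normalisation gave 7 for CALR, 1 for LMAN1, 5 for ATG7, 8 for GABARAPL2, 1 for GABARAP and 0 for GABARAPL1, and no filter gave 1 for GABARAP. Leaving out 1 library gave 0 to 1 for CANX, 1 to 4 for CALR (1 without any of its own), 1 to 8 for LMAN1 (1 without its replicate 1 or 2), 3 to 8 for MCFD2 (3 without its replicate 1 or 3), 2 to 3 for ATG7 and for GABARAPL2, 0 to 2 for GABARAP (0 without its replicate 1), 0 to 1 for GABARAPL1 (0 without any of its own) and 9 to 15 in the F-test. Why the counts differ was not tested, beyond the libraries and genes each fit leaves out.

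Of 123 named calls 121 were kept with 1 added, 109 with quantile normalisation, 109 with voom weights and 103 without the filter. Fits to only the groups compared kept 40 and lost 83, and 294 of 1401 were lost over the fits that left out 1 library. Replicate numbers did not pair the samples: libraries of the same number in different groups had a mean correlation of 0.00156 over 135 pairs (-0.25 to 0.378). With a replicate block 121 of 123 named calls were kept, and the counts against the other 7 became 1 for GABARAP and 0 for GABARAPL1.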
